A study of Mus musculus with 4 samples.

Results

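Regulators of G protein signalling (RGS proteins) are described here through 10 genes, Rgs2, Rgs3, Rgs4, Rgs5, Rgs7, Rgs8, Rgs10, Rgs14, Rgs16 and Rgs17, chosen by name. The choice was made with earlier results of these data known. All 10 were found, as 1 row each, among the 21720 gene symbols kept from the deposited tables. RNA came from cultured hippocampal neurons of newborn (P0) CD1 mice, an outbred strain, and was sequenced after polyA enrichment. All cultures were infected with a lentivirus on day 4 in vitro and harvested on day 11. The 4 groups, of 1 library each, were Kdm6b shRNA with bicuculline and 4-aminopyridine for 3 h (Bic/4AP), Kdm6b shRNA untreated, pLKO.1 vector with Bic/4AP, and pLKO.1 vector untreated. The dose of bicuculline, an antagonist of GABA-A receptors, is labelled 50 µm, taken to mean micromolar. That of 4-aminopyridine, a blocker of potassium channels, was 2.5 mM, and the pair is used to drive synaptic firing. The hairpin (shRNA) is directed against Kdm6b, a demethylase of histone H3 lysine 27, and the control virus was the vector without that hairpin, so every group carries a virus. A single hairpin was used, and the labels do not say how many animals or cultures went into a library. There were no replicates, so nothing below was tested and each value describes 1 library.

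RGS proteins end G protein signals. A receptor loads the alpha subunit of a G protein with GTP, and the RGS domain speeds the hydrolysis of that GTP, after which alpha rejoins the beta-gamma pair and the effectors fall silent. Rgs2, Rgs3, Rgs4, Rgs5, Rgs8 and Rgs16 belong to the small R4 family, which acts on alpha subunits of the Gi, Go and Gq classes. Rgs7 is of the R7 family, which pairs with the beta subunit Gnb5 and a membrane anchor, Rgs10 and Rgs14 are of the R12 family, and Rgs17 is of the RZ family. In the hippocampus these proteins set how long muscarinic, metabotropic glutamate, GABA-B and other receptors act on neurons.

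Promoter windows of 4 members are shown first, since activity-regulated transcription is often studied through the cAMP response element (CRE). Of the 10 members, 9 had at least 1 window of 250 bases before to 50 after an annotated start in RefSeq (build GRCm38.p6), 12 windows in all, and Rgs14 is named only. Rgs2, Rgs4 and Rgs16 are shown as the 3 members 2-fold higher with Bic/4AP, and Rgs17 as the member whose window held an AP-1 match, a choice made after the matches were seen. Capitals mark the CRE core (TGACG, or CGTCA on the other strand) and the AP-1 motif (TGANTCA). All 4 are on the strand of transcription, at chr1:144004100-144004399 (minus strand), chr1:169747593-169747892 (minus), chr1:153740103-153740402 (plus) and chr10:5922351-5922650 (minus).
Rgs2: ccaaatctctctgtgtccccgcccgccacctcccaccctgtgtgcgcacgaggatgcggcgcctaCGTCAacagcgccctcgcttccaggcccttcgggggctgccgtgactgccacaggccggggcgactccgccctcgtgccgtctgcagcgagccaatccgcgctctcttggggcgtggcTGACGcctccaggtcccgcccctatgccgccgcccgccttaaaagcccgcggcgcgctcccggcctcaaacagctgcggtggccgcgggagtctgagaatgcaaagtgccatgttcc
Rgs4: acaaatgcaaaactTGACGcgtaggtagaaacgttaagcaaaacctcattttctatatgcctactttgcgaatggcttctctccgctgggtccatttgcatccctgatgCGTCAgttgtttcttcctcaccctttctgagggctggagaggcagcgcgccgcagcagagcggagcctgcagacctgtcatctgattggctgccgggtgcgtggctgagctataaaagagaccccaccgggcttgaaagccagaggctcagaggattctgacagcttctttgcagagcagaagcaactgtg
Rgs16: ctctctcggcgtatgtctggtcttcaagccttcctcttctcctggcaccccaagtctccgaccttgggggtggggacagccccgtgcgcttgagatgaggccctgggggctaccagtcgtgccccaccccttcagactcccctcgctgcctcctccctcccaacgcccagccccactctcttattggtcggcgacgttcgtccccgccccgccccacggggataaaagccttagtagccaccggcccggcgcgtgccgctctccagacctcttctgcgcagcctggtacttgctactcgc
Rgs17: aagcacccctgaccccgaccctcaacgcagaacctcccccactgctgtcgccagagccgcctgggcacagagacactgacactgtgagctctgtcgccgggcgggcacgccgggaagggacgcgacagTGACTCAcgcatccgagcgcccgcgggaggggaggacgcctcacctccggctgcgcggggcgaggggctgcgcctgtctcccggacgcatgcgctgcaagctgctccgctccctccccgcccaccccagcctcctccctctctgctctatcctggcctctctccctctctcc

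The window of Rgs2 held the CRE core 2 times, beginning 185 and 67 bases before the start. The window of Rgs4 also held it 2 times, 236 and 141 bases before the start. Among the other members it was found in 1 of the 3 windows of Rgs8, 46 bases before the start, and in none of the others. The core was thus in 3 of the 12 windows of members, and in 20.8% of all 32851 promoter windows of the same length, searched on both strands. The full palindromic CRE, TGACGTCA, which contains the core on both strands, was in 1.79% of all windows and in no window of a member. The AP-1 motif was in the Rgs17 window alone among the members, 122 bases before the start, and in 7.81% of all windows. The E-box CACGTG was in the Rgs7 window alone, 29 bases before the start, and in 7.15% of all windows. The bases just after this annotated start were found in no GENCODE transcript of Rgs7, so that distance is less certain. The GC box CCGCCC, not in capitals above, was in 5 of the 12 windows of members, among them 4 times in that of Rgs2, and in 35.7% of all windows. These matches describe letters in a window and were not tied to binding or to the levels below.

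**Figure D1:**
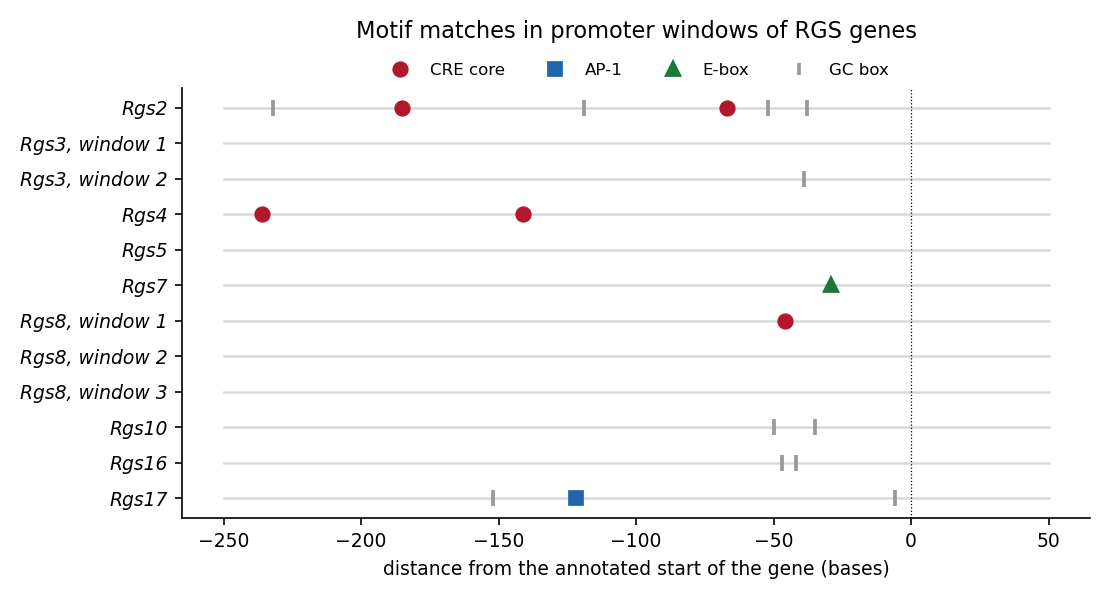
Matches to 4 motifs in the 12 promoter windows of 9 RGS genes, by distance in bases from the annotated start of the gene (the dotted line); symbols mark the first base of each match. Rgs2 and Rgs4 each hold the CRE core 2 times, Rgs8 holds it once, and no match of any of the 4 motifs lies after a start.

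Levels are FPKM, fragments per kilobase of transcript scaled to the mapped fragments of the library, as computed by the authors with Cufflinks, and gene positions are in build mm9. The bounds quoted are the authors' confidence bounds, which cover counting and read assignment within a library and not the variation between cultures. Depth, judged from the FPKM that a single fragment is worth, was 0.994, 1.04, 0.932 and 1 relative to the untreated vector library in the order shRNA Bic/4AP, shRNA untreated, vector Bic/4AP and vector untreated, and total counts were not used here. Kdm6b had 4.83 FPKM with Bic/4AP and 2.73 untreated in hairpin cultures, against 13.1 with Bic/4AP and 6.74 untreated in vector cultures, which leaves 36.8% of the vector level with Bic/4AP and 40.6% untreated. The immediate-early gene Fos stood at 765 with Bic/4AP and 15.3 untreated in hairpin cultures, and at 771 with Bic/4AP and 12.5 untreated in vector cultures. All 10 pan-neuronal markers, 9 excitatory and 11 inhibitory neuron markers reached an FPKM of 1 in every library. Astrocyte markers did so for 9 or 10 of 10, with a sum of 2833 to 3211 FPKM, beside 2137 to 2833 FPKM for the pan-neuronal list, so the cultures also held astrocyte RNA. Endothelial markers reached 1 FPKM for 2 of 9, and oligodendrocyte lineage markers for 6 of 10 in the hairpin libraries and 8 of 10 in the vector libraries.

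The members differed widely in level, and Rgs4 headed the order in every library. Rgs4, an R4 member abundant in forebrain neurons, had 491 FPKM with Bic/4AP and 136 untreated in hairpin cultures, and 394 with Bic/4AP and 138 untreated in vector cultures. These levels ranked 100, 601, 145 and 592 among the symbols of the same libraries. Rgs2 was always next. Together the 2 genes made up 88.2% of the members' summed FPKM with Bic/4AP and 68.9% untreated in hairpin cultures, and 85.1% with Bic/4AP and 65.3% untreated in vector cultures. The 7 members other than Rgs2, Rgs4 and Rgs16 summed to 71.1 FPKM with Bic/4AP and 72.2 untreated in hairpin cultures, and to 75.5 with Bic/4AP and 87.3 untreated in vector cultures. Rgs5 was always last, below 1 FPKM in all 4 libraries. Between these ends the order depended on the library. Rgs7 was in the third place in both untreated libraries, and Rgs10 in both libraries with Bic/4AP, where Rgs7 was next. Rgs16 stood in the fifth place in both libraries with Bic/4AP and in the ninth in both untreated ones. Neighbours whose bounds overlapped, and which therefore could not be ordered, were Rgs7 with Rgs16 and Rgs3 with Rgs14 in the shRNA Bic/4AP library, Rgs8 with Rgs3 and Rgs14 with Rgs16 in the shRNA untreated library, Rgs10 with Rgs7 in the vector Bic/4AP library, and Rgs3 with Rgs17 in the vector untreated library.

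**Figure D2:**
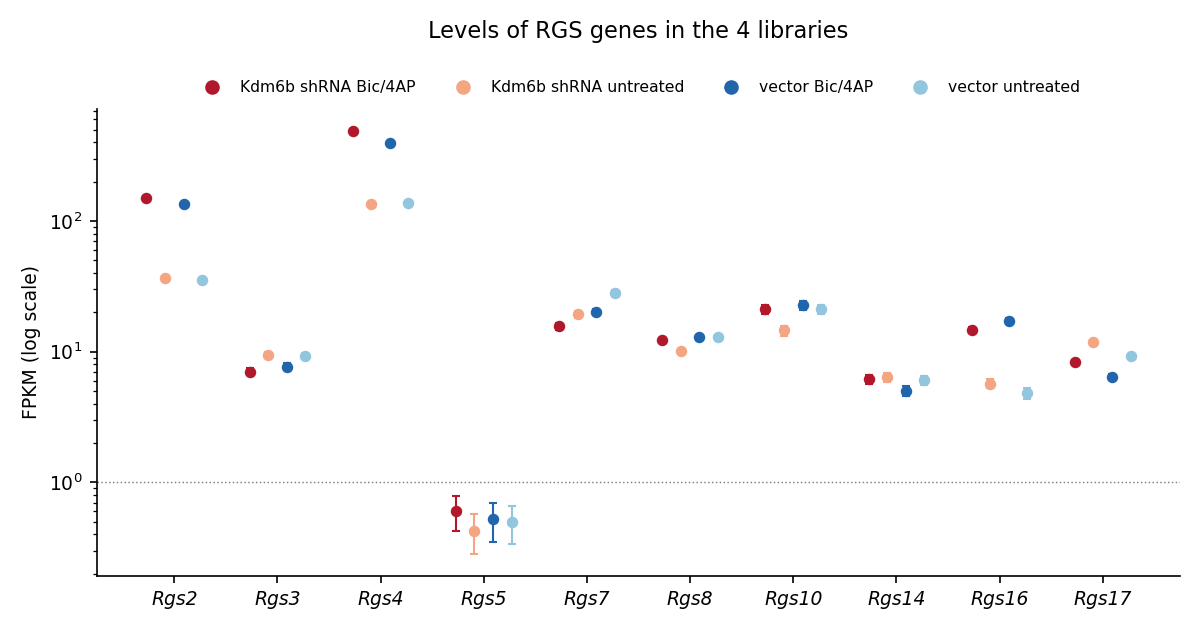
FPKM on a log axis for each of the 10 RGS genes in the 4 libraries, with the authors' lower and upper bounds as bars; the dotted line is the FPKM of 1 needed for a comparison. Rgs4, Rgs2 and Rgs16 are higher in both Bic/4AP libraries, and Rgs5 lies below 1 everywhere.

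The first comparison asked how the members differ after 3 h of firing, in each background. Rgs2, Rgs4 and Rgs16 were at least 2-fold higher with Bic/4AP in hairpin and in vector cultures, and no member was 2-fold lower. All 3 are of the R4 family, of whose 6 members 5 could be compared. Values compared are log2(FPKM + 1), on which weak genes appear to differ less than they do in FPKM, and 2-fold means a difference of at least 1. A gene was compared where it had an FPKM of at least 1 in a compared library, which 9 of the 10 members did. Among all genes compared with the hairpin present, 2.08% were 2-fold higher and 0.158% 2-fold lower, and in vector cultures 2.22% were higher and 0.272% lower. The members were chosen with earlier results of these data known, so their number beside these shares is a description. The members' median difference was 0.24 with the hairpin and 0.00 in vector cultures, beside -0.08 and -0.07 over all genes. In this bulk RNA, fewer cells of a type and less RNA per cell cannot be told apart.

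Rgs2, which acts mainly on Gq and is known as an immediate-early gene of neurons, had the largest difference of the members in both backgrounds. It lies on chromosome 1 from 145846468 to 145851279. It had 151 FPKM (bounds 148 to 153) with Bic/4AP and 36.6 (35.6 to 37.6) untreated in hairpin cultures. In vector cultures it had 135 FPKM (132 to 137) with Bic/4AP and 35.5 (34.5 to 36.6) untreated. The untreated libraries overlapped each other, and both Bic/4AP libraries stood far above them. The difference was 2.01 with the hairpin, a ratio of 4.11, and 1.89 in vector cultures, a ratio of 3.79. It ranked 78 of 13320 genes from the highest with the hairpin and 79 of 13217 in vector cultures.

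Rgs4 lies on chromosome 1 from 171671608 to 171677773 and acts on Gi, Go and Gq. Its bounds were 487 to 495 with Bic/4AP and 134 to 138 untreated in hairpin cultures, and 390.1 to 397 with Bic/4AP and 136 to 139.9 untreated in vector cultures. The 2 untreated libraries were alike within the bounds, while the 2 Bic/4AP libraries were apart from them and from each other. Its difference was 1.85 with the hairpin, a ratio of 3.61, and 1.51 in vector cultures, a ratio of 2.86. These differences ranked 91 and 131 from the highest.

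Rgs16, an R4 member that acts on Gi and Gq and varies with the circadian cycle in the suprachiasmatic nucleus, lies on chromosome 1 from 155587483 to 155592598. It had 14.6 FPKM (13.8 to 15.4) with Bic/4AP and 5.70 (5.23 to 6.16) untreated in hairpin cultures. In vector cultures it had 17.1 FPKM (16.3 to 18.0) with Bic/4AP and 4.81 (4.37 to 5.24) untreated. Both Bic/4AP libraries were above both untreated ones, and the vector library was the highest with Bic/4AP and the lowest untreated. The difference was 1.22 with the hairpin and 1.64 in vector cultures, with ratios of 2.56 and 3.56. At a pseudocount of 5 the hairpin difference was 0.87, below the 2-fold line, and 2 members were then 2-fold higher in that background.

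**Figure D3:**
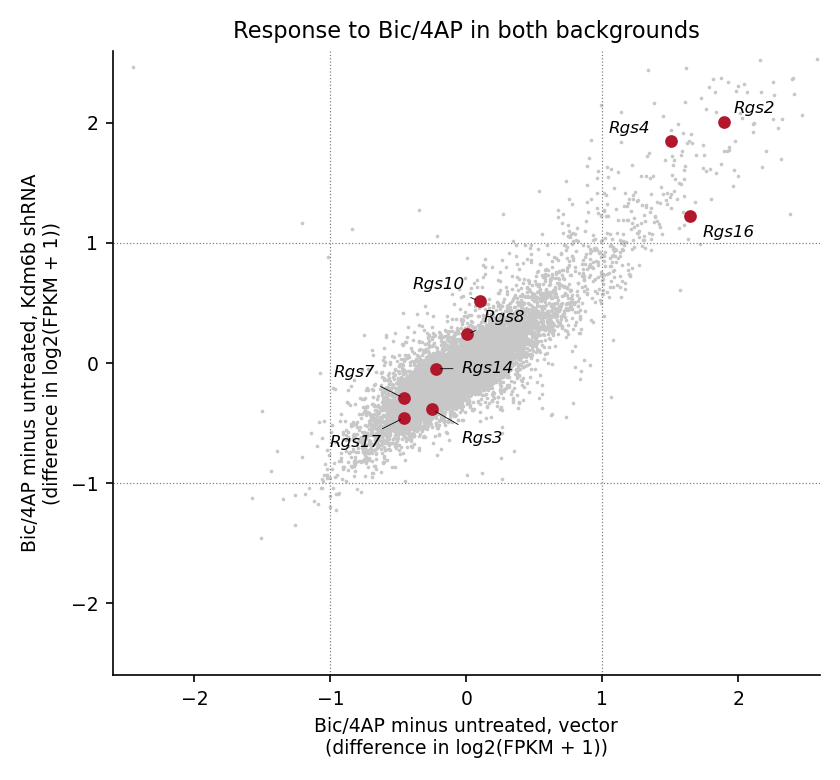
Bic/4AP minus untreated as a difference in log2(FPKM + 1), in hairpin cultures (vertical) against vector cultures (horizontal); red points are the 9 compared RGS genes, grey points the other genes compared in both, and dotted lines mark a 2-fold difference. The axes end at 2.6, which leaves 47 of 13079 genes outside, and Rgs2, Rgs4 and Rgs16 lie beyond 1 on both axes.

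Of the other R4 members, Rgs8 and Rgs3 were not 2-fold apart in either background, and Rgs5 was too weak to be compared. Rgs8, which acts on Gi and Go and is best known from cerebellar Purkinje cells, lies on chromosome 1 from 155500167 to 155544795. It had 12.2 FPKM with Bic/4AP and 10.2 untreated in hairpin cultures, and 13.0 with Bic/4AP and 12.9 untreated in vector cultures. The bounds of the vector libraries overlapped, and those of the hairpin libraries did not (11.8 to 12.6 with Bic/4AP and 9.80 to 10.6 untreated), with a difference of 0.24. Rgs3, which acts on Gi and Gq, was lower with Bic/4AP in both backgrounds. It had 7.03 FPKM with Bic/4AP and 9.50 untreated with the hairpin, a difference of -0.39, and 7.66 with Bic/4AP and 9.32 untreated in vector cultures, a difference of -0.25. Both pairs of libraries had bounds apart, 6.60 to 7.47 with Bic/4AP and 9.01 to 9.99 untreated with the hairpin, and 7.21 to 8.11 with Bic/4AP and 8.84 to 9.80 untreated in vector cultures. Its row, on chromosome 4 from 62220881 to 62364053, joins 2 start sites, so isoforms of Rgs3 could not be separated.

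Rgs5 is known as a marker of pericytes, the contractile cells of small vessels, lies on chromosome 1 from 171585632 to 171623657, and was weakly represented. It had 0.606 FPKM with Bic/4AP and 0.427 untreated in hairpin cultures, and 0.520 with Bic/4AP and 0.498 untreated in vector cultures. The widths of the bounds correspond to 46, 34, 37 and 38 fragments in the same order. The exact Poisson intervals at 95% were 33.7 to 61.4, 23.5 to 47.5, 26.1 to 51.0 and 26.9 to 52.2 fragments, all overlapping and covering counting error only. No difference of Rgs5 was detectable at this depth. Of 11 mural cell markers, Pdgfrb, Notch3, Acta2 and Vtn reached 1 FPKM in all 4 libraries, with a list sum of 56.8 to 80.7 FPKM of which the smooth muscle actin gene Acta2 made most, and the pericyte genes Kcnj8, Abcc9 and Cspg4 stayed below 0.3 FPKM in each.

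Some of these R4 genes are neighbours on chromosome 1, and the neighbours differed. Rgs4 and Rgs5 are 47.95 kb apart, with no other row of the tables between them, and had the highest and the lowest level of all members in every library. Rgs8 and Rgs16 are 42.7 kb apart, likewise with no row between, and Rgs16 was 2-fold higher with Bic/4AP in both backgrounds while Rgs8 was 2-fold apart in neither. Rgs2 has Rgs13 as its next RGS gene, at a gap of 134.517 kb. Rgs13, an R4 gene of lymphoid and mast cells, had 1.01 FPKM with Bic/4AP and 0.685 untreated in hairpin cultures, and 1.10 with Bic/4AP and 1.41 untreated in vector cultures. Rgs1, beyond it, was at 0.161 to 0.220 FPKM, and Rgs18, beyond Rgs1, was listed at 0 in all 4 libraries.

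None of the 4 members outside the R4 family was 2-fold apart with firing. Rgs17, which acts on Gz, Gi and Go, lies on chromosome 10 from 4424141 to 4520877. It had 8.37 FPKM (8.08 to 8.65) with Bic/4AP and 11.8 (11.5 to 12.2) untreated in hairpin cultures. In vector cultures it had 6.45 FPKM (6.17 to 6.73) with Bic/4AP and 9.21 (8.86 to 9.57) untreated. Both Bic/4AP libraries were below both untreated ones. The differences were -0.45 with the hairpin and -0.46 in vector cultures, so 70.7% and 70.0% of the untreated level was present.

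Rgs7, the member of the R7 family, lies on chromosome 1 from 176989207 to 177422676. It had 15.6 FPKM (14.5 to 16.6) with Bic/4AP and 19.3 (18.2 to 20.4) untreated in hairpin cultures. In vector cultures it had 20.2 FPKM (19.0 to 21.3) with Bic/4AP and 28.1 (26.8 to 29.4) untreated. It was lower with Bic/4AP in each background, with differences of -0.29 with the hairpin and -0.46 in vector cultures. Its partner genes did not show a 2-fold difference either. Gnb5, the beta subunit that holds R7 proteins stable, differed by -0.34 with the hairpin and -0.32 in vector cultures, and Rgs7bp, the membrane anchor, by 0.07 and -0.18.

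Rgs10, a small R12 member known for its abundance in microglia and also present in neurons, lies on chromosome 7 from 135517139 to 135561686. It had 21.2 FPKM (19.5 to 22.8) with Bic/4AP and 14.5 (13.2 to 15.8) untreated in hairpin cultures. In vector cultures it had 22.8 FPKM (21.0 to 24.5) with Bic/4AP and 21.2 (19.6 to 22.8) untreated. The shRNA untreated library was the low value, and the bounds of the other 3 libraries overlapped. The difference with firing was 0.51 with the hairpin and 0.10 in vector cultures. Rgs14, an R12 scaffold known to limit long-term potentiation in CA2 pyramidal neurons, lies on chromosome 13 from 55471093 to 55486048. It had 6.15 FPKM with Bic/4AP and 6.39 untreated in hairpin cultures, and 5.02 with Bic/4AP and 6.02 untreated in vector cultures. Its difference was -0.05 with the hairpin, where the bounds overlapped, and -0.22 in vector cultures, where they did not (4.56 to 5.48 with Bic/4AP and 5.53 to 6.50 untreated). Of 8 genes listed as CA2 markers, 7 reached 1 FPKM in every library, with a sum of 207 to 268 FPKM, most of it from Pcp4.

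Bounds that do not overlap are a loose criterion in these libraries. With the hairpin present, 5 members were higher with Bic/4AP by this criterion (Rgs2, Rgs4, Rgs8, Rgs10 and Rgs16) and 3 lower (Rgs3, Rgs7 and Rgs17), while 17.0% of all genes were higher and 37.6% lower. In vector cultures 3 were higher (Rgs2, Rgs4 and Rgs16) and 4 lower (Rgs3, Rgs7, Rgs14 and Rgs17), while 21.8% of all genes were higher and 37.0% lower. The share of lower members was therefore near that of all genes.

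The next comparison asked how the members differ with the Kdm6b hairpin. No member was 2-fold apart, either with Bic/4AP or untreated. With Bic/4AP, 0.189% of all genes were 2-fold higher and 0.536% 2-fold lower with the hairpin, and untreated the shares were 0.414% and 0.669%. The members' median difference was -0.08 with Bic/4AP and 0.03 untreated, beside 0.03 and 0.05 over all genes. By bounds that do not overlap, 4 members were higher (Rgs2, Rgs4, Rgs14 and Rgs17) and 2 lower (Rgs7 and Rgs16) with Bic/4AP, while 28.6% of all genes were higher and 21.1% lower. Untreated, 1 was higher (Rgs17) and 3 lower (Rgs7, Rgs8 and Rgs10), while 33.1% of all genes were higher and 22.2% lower.

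Rgs17 and Rgs7 differed in the same direction in both states. Rgs17 was higher with the hairpin, by 0.33 with Bic/4AP, a ratio of 1.30, and by 0.33 untreated, a ratio of 1.28. Rgs7 was lower, with differences of -0.35 with Bic/4AP (77.3% of vector) and -0.52 untreated (68.7%). In neither state did the bounds of hairpin and vector libraries overlap for these genes. The ranks of Rgs7 from the lowest were 902 of 13240 with Bic/4AP and 523 of 13295 untreated.

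Rgs10 and Rgs8 were lower with the hairpin in the untreated cultures. Rgs10 stood at 93.0% of the vector level with Bic/4AP, with overlapping bounds, and at 68.5% untreated, where the difference was -0.52. Of 14 microglia markers 11 could be compared in each state. With Bic/4AP, 9 of them were below 0 and 3 were 2-fold lower, with a median of -0.85, and untreated 10 were below 0 and 4 were 2-fold lower, with a median of -0.51. No microglia marker was listed at 0, and the microglia gene Tmem119 was at 0.135 FPKM or less in each library. The summed microglia list held 46.2 FPKM with Bic/4AP and 45.1 untreated in hairpin cultures, against 85.3 with Bic/4AP and 81.9 untreated in vector cultures. The microglia list was thus lower with the hairpin in both states and Rgs10 in the untreated state, and the part of microglia in the Rgs10 level was not tested. Rgs8 stood at 94.0% of the vector level with Bic/4AP, with overlapping bounds, and at 78.7% untreated, a difference of -0.32.

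Most markers of neurons and of the oligodendrocyte lineage were also lower with the hairpin in the untreated state, where Rgs7, Rgs8 and Rgs10 were lower. The inhibitory neuron list summed to 766 FPKM with Bic/4AP and 496 untreated in hairpin cultures, against 1052 with Bic/4AP and 1038 untreated in vector cultures. Sst made the largest part, 413 FPKM with Bic/4AP and 225 untreated in hairpin cultures, and 542 with Bic/4AP and 539 untreated in vector cultures. Of the 11 genes of this list, 9 were below 0 with Bic/4AP and none 2-fold lower (median -0.27). Untreated, 10 were below 0 and 3 were 2-fold lower (median -0.50). The excitatory neuron list summed to 697 FPKM with Bic/4AP and 753 untreated in hairpin cultures, against 730.01 with Bic/4AP and 995 untreated in vector cultures. Of its 9 genes, 3 were below 0 with Bic/4AP (median 0.15) and all 9 untreated (median -0.26). None of these neuron markers was listed at 0. Of 10 pan-neuronal markers, 4 were below 0 with Bic/4AP (median 0.04, with the other sign under median-ratio scaling) and 9 untreated (median -0.15). Of these, 1 was 2-fold lower in each state, Stmn2, at -1.21 with Bic/4AP and -1.34 untreated. Of 8 compared oligodendrocyte lineage markers, 7 were below 0 with Bic/4AP (median -0.39) and all 8 untreated (median -0.34). Of the astrocyte markers, 3 of 9 were below 0 with Bic/4AP (median 0.07) and 4 of 10 untreated (median 0.02, with the other sign under median-ratio scaling). The part of these cell types in the levels of the RGS genes was not tested.

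Between hairpin and vector, the 3 members that were higher with firing differed in sign among themselves in both states. With Bic/4AP, Rgs4 was higher with the hairpin by 0.32, a ratio of 1.25, and Rgs2 by 0.16, a ratio of 1.12, while Rgs16 was lower, at -0.22 and 85.3% of the vector level. Untreated, their differences were -0.02, 0.04 and 0.21, each with overlapping bounds, and that of Rgs2 took the other sign under median-ratio scaling (-0.01). Rgs14 was 0.25 higher with the hairpin with Bic/4AP and 0.07 untreated. Rgs3 had overlapping bounds in both states, at -0.11 with Bic/4AP and 0.03 untreated.

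**Figure D4:**
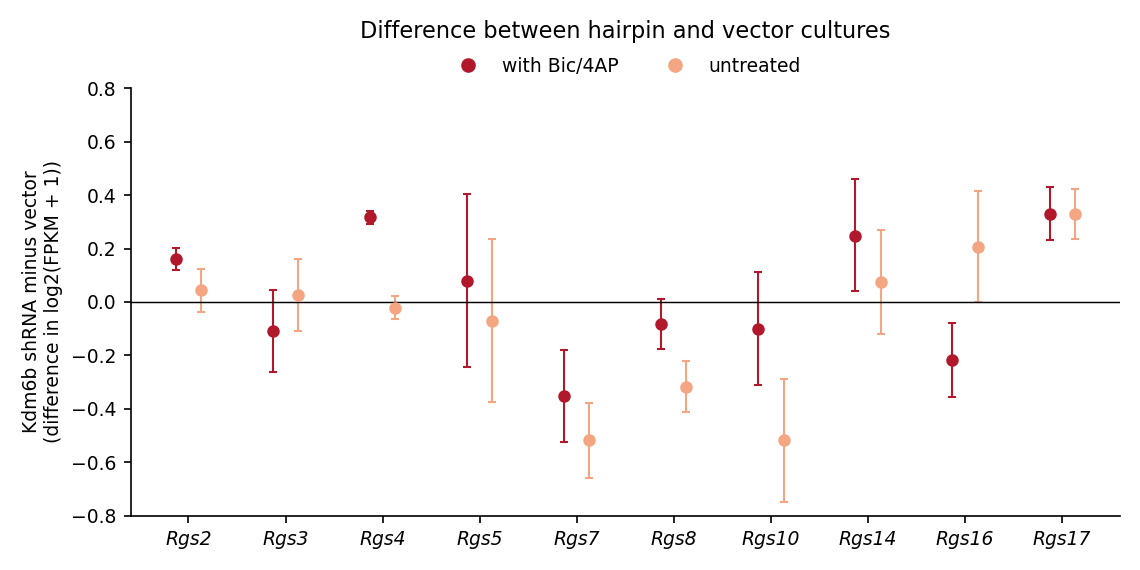
Kdm6b shRNA minus vector as a difference in log2(FPKM + 1) for each RGS gene, with Bic/4AP (dark) and untreated (light); bars run to the most distant pair of the authors' bounds and do not cover the variation between cultures. All differences lie between -0.52 and 0.33, and Rgs17 and Rgs7 lie on opposite sides of 0 in both states.

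The responses to Bic/4AP were then set against each other, hairpin minus vector. No member differed by at least 1 on the log2 scale, as did 0.238% of 13458 genes. The members furthest from 0 were Rgs16 at -0.42 and Rgs10 at 0.42, and 96.6% and 96.5% of all genes had a smaller size. Rgs4 stood at 0.34 (93.7% of genes smaller) and Rgs8 at 0.23. Rgs14, Rgs7, Rgs2 and Rgs3 stood at 0.17, 0.17, 0.12 and -0.13, and Rgs17 at 0.00. The median over the members was 0.17, beside -0.02 over all genes. It was 0.27 over 10 pan-neuronal markers (9 above 0), 0.26 over 9 excitatory (9 above 0) and 0.27 over 11 inhibitory neuron markers (10 above 0). Over 10 astrocyte markers it was 0.08 and over 12 microglia markers 0.02. The members' median was thus below those of the neuron markers, whose part in it was not tested. With 4 libraries the difference of the responses has no error of its own, so no member is shown to respond differently.

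The other genes of the RGS family differed less with firing than Rgs2, Rgs4 and Rgs16. Of 15 other genes listed, among them the anchors Rgs7bp and Rgs9bp and the Wnt pathway scaffolds Axin1 and Axin2, 14 were found, all except Rgs21, and 11 were compared. None was 2-fold apart in any of the 4 comparisons. This list and the members were separated with earlier results of these data known, so the contrast between them is a description. Rgs20, an RZ member abundant in brain, had the highest differences of the list, 0.32 with the hairpin and 0.33 in vector cultures. It had 30.4 FPKM with Bic/4AP and 24.1 untreated in hairpin cultures, and 36.0 with Bic/4AP and 28.4 untreated in vector cultures. Rgs11, an R7 member, had the lowest, -0.44 with the hairpin and -0.53 in vector cultures. It had 5.99 FPKM with Bic/4AP and 8.46 untreated in hairpin cultures, and 7.81 with Bic/4AP and 11.7 untreated in vector cultures. Rgs6 and Rgs9, the remaining R7 genes, stayed between -0.13 and 0.05 in both responses. Between hairpin and vector, the highest of the list was Rgs22, at 0.33 in both states, and the lowest were Rgs11 with Bic/4AP (-0.34) and Rgs13 untreated (-0.52).

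Most of the listed genes of the G protein pathway other than RGS genes had differences below 0 with firing. The median over all genes was -0.08 with the hairpin and -0.07 in vector cultures. Neuron markers are given beside them. Of 10 pan-neuronal markers, 7 were below 0 with the hairpin (median -0.13) and 8 in vector cultures (median -0.33). Of 9 excitatory neuron markers, 5 were below 0 with the hairpin (median -0.02, with the other sign under median-ratio and upper-quartile scaling) and 7 in vector cultures (median -0.36). Of 11 inhibitory neuron markers, 2 were below 0 with the hairpin (median 0.28) and 6 in vector cultures (median -0.02, with the other sign under the same scalings). The part of these markers in the list values below was not tested. Of 12 compared genes for alpha subunits, 3 were above 0 and 9 below with the hairpin (median -0.11), and 4 above and 8 below in vector cultures (median -0.19), with none 2-fold apart. Gnaz, the gene of Gz, had the lowest difference in both, -0.59 and -0.65, and Gna13, of the G12 class, the highest, 0.42 and 0.49. The abundant Go subunit gene Gnao1 stood at 179 FPKM with Bic/4AP and 193 untreated in hairpin cultures, and at 205 with Bic/4AP and 237 untreated in vector cultures. Of the beta and gamma subunits, 1 of 12 was above 0 with the hairpin and 1 of 13 in vector cultures, Gng5 in both. Gng13, a gamma subunit known from taste and retina, had 11.1 FPKM with Bic/4AP and 11.8 untreated in hairpin cultures, against 6.65 with Bic/4AP and 15.1 untreated in vector cultures, where it was the single 2-fold lower gene of the list (-1.07).

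Effectors followed the same direction. Of 13 compared, 4 were above 0 with the hairpin and 2 in vector cultures, with medians of -0.12 and -0.33 and none 2-fold apart. The adenylyl cyclase gene Adcy9 was the lowest in both, at 4.38 FPKM with Bic/4AP and 7.25 untreated with the hairpin, and 3.92 with Bic/4AP and 7.35 untreated in vector cultures. Kcnj9, a subunit of the potassium channels opened by beta-gamma, differed by -0.55 and -0.66. Receptor kinases, arrestins and G protein modulators had medians of -0.23 and -0.34 over 11 genes, and the receptor kinase gene Grk5 was the highest at 0.30 and 0.33.

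Receptors coupled to Gi, Go or Gq had the lowest medians of the pathway lists, -0.31 over 32 genes with the hairpin and -0.46 over 35 in vector cultures. With the hairpin 24 were below 0 and 8 above, 3 of them 2-fold lower and 1 higher, and in vector cultures 30 were below and 5 above, 6 of them 2-fold lower and none higher. Over all genes 0.158% were 2-fold lower with the hairpin and 0.272% in vector cultures. The receptor list was chosen with earlier results of these data known, so its numbers beside these shares are a description. Sstr3, a somatostatin receptor, was the lowest in both, at 0.988 FPKM with Bic/4AP and 3.34 untreated in hairpin cultures, and 1.21 with Bic/4AP and 5.58 untreated in vector cultures. Sstr1, another somatostatin receptor, had 43.7 FPKM with Bic/4AP and 14.6 untreated in hairpin cultures (1.52), and 31.3 with Bic/4AP and 18.4 untreated in vector cultures (0.73). Oprl1, the nociceptin receptor, had differences of -1.09 and -1.26, and Grm7, a metabotropic glutamate receptor, of -1.04 and -1.16.

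**Figure D5:**
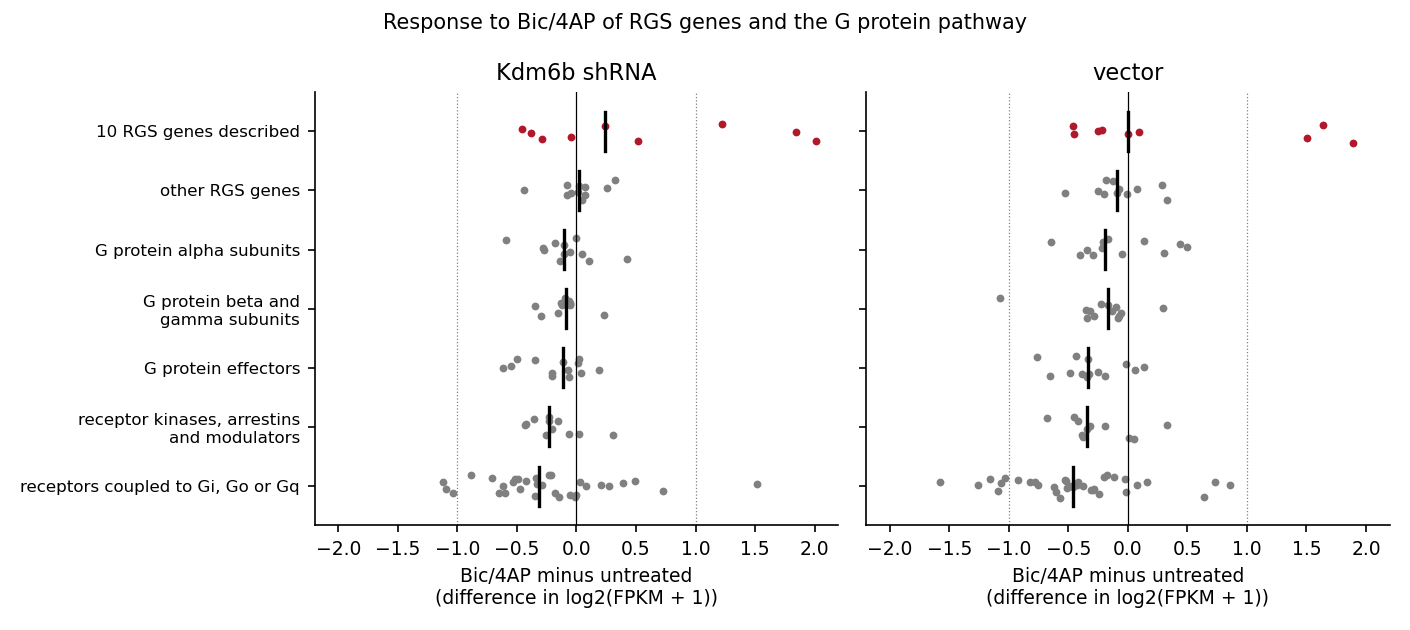
Bic/4AP minus untreated as a difference in log2(FPKM + 1), in hairpin (left) and vector cultures (right), for the 10 RGS genes described (9 compared, red) and for 6 lists of other genes of the pathway (grey); each point is a gene, black bars are medians and dotted lines mark a 2-fold difference. Rgs2, Rgs4 and Rgs16 lie beyond 1 in both panels, and most receptors lie below 0.

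With the hairpin against vector, no list of pathway genes reached a median beyond 0.28 in size. The receptor median was -0.07 with Bic/4AP and -0.28 untreated, where it was the lowest of these lists. Untreated, 30 of 36 receptors were below 0 and 1 was 2-fold lower, the dopamine receptor gene Drd2, at 0.255 FPKM in hairpin and 1.89 in vector cultures. Beta and gamma subunits had the highest median with Bic/4AP, 0.18, with 12 of 12 above 0 in the FPKM as deposited, led by Gng13 (0.66). The lowest of the 12, Gnb2, stood at 0.01, below the median of 0.03 over all genes. Untreated, the median of the beta and gamma subunits was 0.03, and it took the other sign under median-ratio scaling.

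The genes nearest to Rgs2 in pattern were Dio2, Fosl2 and Bdnf, and those nearest to Rgs7, the member with the lowest response in vector cultures, were Tmem196, Accn1 and Dscaml1. Likeness was the Euclidean distance between the 4 values of log2(FPKM + 1), each gene centred on its own mean, among 13458 genes. The distances were 0.079, 0.16 and 0.17 from Rgs2 and 0.029, 0.038 and 0.039 from Rgs7. Tmem196 had 0.263 FPKM with Bic/4AP and 0.564 untreated in hairpin cultures, and 0.608 with Bic/4AP and 1.18 untreated in vector cultures. At such low levels its differences are made smaller by the pseudocount of 1, so its distance depends on that setting. Dio2, a deiodinase gene, had 18.0 FPKM with Bic/4AP and 3.46 untreated in hairpin cultures, and 14.8 with Bic/4AP and 3.43 untreated in vector cultures. Accn1, an acid-sensing ion channel gene, had 12.6 FPKM with Bic/4AP and 15.9 untreated in hairpin cultures, and 16.0 with Bic/4AP and 22.6 untreated in vector cultures. Over 4 libraries many genes share such a pattern, so these names are a description.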

How the data were processed

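RNA-seq libraries of 4 groups, 1 each, were compared. The authors deposited FPKM with lower and upper bounds per row, and Cufflinks 2.0.2, TopHat2 2.0.8b, CASAVA 1.8 and the build mm9 are listed, without roles, in the submitters' processing notes. The annotation used is not given in the sources used here. Symbols with a failed row in any library (42) and 730 small RNA symbols were left out, rows of a symbol were summed, and start positions, found to count from 0 (594 of 625 microRNA genes), are given from 1. Differences in log2(FPKM + 1) were taken where either library compared had an FPKM of 1 or more, and called at a size of 1 or more, with no test. The calculation of differences was tested on simulated data with known changes. Fragments were implied from bounds, taken as the value ± 2 times the value over the root of the fragment number. This gave whole numbers (within 0.05, in all libraries) for 2408 of 4381 genes with 5 to 400 fragments (55.0%), and for 1295 of 1747 (74.1%) with 5 to 100 fragments whose FPKM per fragment was steady to 0.5%, as it was for Rgs5. Reads of paralogs were assigned by the authors' tools. Alternatives were pseudocounts of 0.1 and 5, no filter or an FPKM of 5, 3 scalings, bounds that must not overlap, the highest row of a symbol, and small RNA genes kept. All 10 members were named, with Kdm6b, Fos, the 2 highest and 2 lowest of each list, RGS genes, and the 3 genes nearest to the members with the highest and lowest vector response. Gnao1, Grm7 and the markers named beside a member were chosen after their values were seen. The members and lists were chosen with earlier results of these data known. Python 3.11.15, numpy 2.4.6, pandas 2.3.3, scipy 1.17.1 and matplotlib 3.10.9 were used.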

Additional observations from a re-analysis of the deposited data

Results flagged for a closer look

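In the FPKM as deposited, the hairpin minus vector difference had opposite signs in the 2 states for 3 members. Each group had 1 library, and the differences between states were not tested. Rgs16 stood at -0.22 with Bic/4AP and 0.21 untreated, which makes -0.42 between states. Rgs4 stood at 0.32 with Bic/4AP and -0.02 untreated, which makes 0.34. For both Rgs16 and Rgs4 the bounds of the untreated hairpin and vector libraries overlapped, so the sign in the untreated state is uncertain. Rgs3 stood at -0.11 with Bic/4AP and 0.03 untreated, which makes -0.13, with overlapping bounds in both states. Under median-ratio scaling Rgs3 was at -0.02 untreated, so its signs were then alike. Rgs2 was then at 0.12 with Bic/4AP and -0.01 untreated, so its signs were then opposite.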

How the results depend on the processing

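The number of members 2-fold apart stayed at 3 for Bic/4AP in vector cultures and at 0 for both hairpin comparisons and for the difference of the responses, under every alternative run. With the hairpin the number for Bic/4AP was 3 under all but a pseudocount of 5, where Rgs16 left it and 2 remained. No 2-fold difference of a member changed sign. Of 405 differences of single members recomputed under the alternatives, 376 moved by less than the error given by the authors' bounds and 29 by more, 12 of these at a pseudocount of 5 and 10 under median-ratio scaling. Signs of differences near 0 depended on scaling for Rgs14 (Bic/4AP with the hairpin, 0.03 under median-ratio), Rgs8 (Bic/4AP in vector cultures, -0.02 under a common sum), Rgs2 and Rgs3 (hairpin untreated, -0.01 and -0.02 under median-ratio) and Rgs17 (difference of the responses, -0.0083 under a common sum). No scaling moved the median of all genes by more than 0.1. No paired analysis was possible because each group has 1 library, and for the same reason no library could be left out. Of the members, Rgs5 had the fewest implied fragments, 34 to 46 in a library.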
